A study of Homo sapiens with 6 samples.

Results

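The genes described here are 35 regulators of mitosis: the cyclins and kinases that start it, the factors that start anaphase, the proteins that build the spindle and divide the cell, and the mitotic kinesins. They were taken from a list of symbols that was chosen with earlier results of these data known. Of the list, 35 of 35 were found among the 60483 gene identifiers counted in each library. Their transcripts were counted in HepG2 cells, an established line from a human hepatocellular carcinoma, cultured at passage 16-19. Cells were transfected with a control siRNA (3 libraries, numbered 1 to 3) or with an siRNA against FTO (3 libraries, 1 to 3), so every library comes from transfected cells. FTO is a dioxygenase that takes methyl groups off m6A, a modified adenosine of mRNA. The sources used here name no siRNA sequence, dose or time of harvest, and nothing says that the libraries of a group were separate cultures, so the p-values measure the spread between these libraries, which may be technical.

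A cell enters mitosis when CDK1, bound to cyclin A or cyclin B, is freed of its inhibitory phosphates by CDC25 phosphatases. Aurora and polo-like kinases then mature the centrosomes and correct attachments, kinesins move along and reshape microtubules, and the checkpoint kinases hold back the anaphase-promoting complex (APC/C) until every chromosome is attached. CDC20 and UBE2C let that complex destroy securin (PTTG1) and cyclin B, and the cell then divides. Transcripts of most of these proteins peak late in the cell cycle under the MuvB complex, B-MYB and FOXM1, and they are widely read as markers of proliferation. In bulk RNA, fewer cells in mitosis and less RNA of these genes per cell cannot be told apart.

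Promoters of late cell cycle genes often carry a cell cycle homology region (CHR), which the MuvB complex binds, and CCAAT boxes, which NF-Y binds. Here CHR stands for the letters TTTGAA or TTCGAA, and no other form of the element was searched. Windows of 300 bases (250 before and 50 after the RefSeq start) were searched for 28 of the 35 genes. None was searched for AURKA, BIRC5, FOXM1, PBK, TPX2, TTK and UBE2C. For PBK this does not show that an entry is lacking. On either strand, 21 of the 28 (75.0%) held TTTGAA or TTCGAA, against 16.6% of all 27305 genes with a window, and 23 (82.1%) held CCAAT, against 35.7%. Both a CHR and at least 2 CCAAT boxes occurred in 10 of the 28 (35.7%) and in 1.98% of all genes. These are matches of letters, not measured binding.

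The 3 genes with the smallest p-values among those that fell (KIF14, MKI67 and KIF15) and 2 anaphase genes that did not (CDC20 and PTTG1, picked after their values were seen) are shown to set promoters of both kinds side by side. Each stretch ends before the RefSeq start and reads 5′ to 3′ along the gene with CHR and CCAAT letters (or their reverse complements, TTCAAA and ATTGG) in capitals. For KIF15 the 30 bases around its only CHR match are given, which lie in an annotated exon. They lie at chr1:200620752-200620871 (minus strand), chr10:128126424-128126543 (minus), chr3:44761747-44761776 (plus), chr1:43358861-43358954 (plus) and chr5:160421735-160421821 (plus) of GRCh38.p14.
KIF14: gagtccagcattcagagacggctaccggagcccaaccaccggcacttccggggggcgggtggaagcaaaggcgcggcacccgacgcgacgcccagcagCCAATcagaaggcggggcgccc
MKI67: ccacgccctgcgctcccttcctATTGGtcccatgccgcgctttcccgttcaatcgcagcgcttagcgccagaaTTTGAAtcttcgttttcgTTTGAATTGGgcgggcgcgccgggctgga
KIF15: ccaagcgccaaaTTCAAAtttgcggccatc
CDC20: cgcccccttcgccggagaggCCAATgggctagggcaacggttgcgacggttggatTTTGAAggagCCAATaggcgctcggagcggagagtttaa
PTTG1: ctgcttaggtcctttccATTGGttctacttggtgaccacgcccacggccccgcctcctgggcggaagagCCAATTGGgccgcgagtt
MKI67 has a pair of CHR matches within 50 bases of its start, and the last of them runs into a CCAAT box. The one CHR match of KIF14 starts at position 2, just past the stretch shown. CDC20 has a CHR between its CCAAT boxes, and a further CHR upstream of the stretch shown. PTTG1 has CCAAT boxes and no CHR match in its window.

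The libraries held 15713279 to 18390953 counts, and no member had fewer than 299 counts in a library. Of the 35 members, 16 overlap an annotated gene on the opposite strand and 7 one on the same strand (20 in all), among them FOXM1, KIF20A, CCNA2 and PRC1, and with the strand setting unknown their counts may include reads of those genes. FTO, the target, was at 40.8, 37.96 and 38.8 CPM (counts scaled to a common library size, with TMM factors) in controls 1, 2 and 3 and at 11.2, 14.5 and 5.21 CPM in FTO siRNA 1, 2 and 3. FTO fell by 1.93 ± 0.32 in log2 units (adjusted p = 0.00932; quasi-likelihood test of edgeR, with Benjamini-Hochberg adjustment over all genes tested). Each library labelled FTO siRNA was thus under each control, and FTO siRNA 3 was the lowest. FTO siRNA 3 also stood apart from FTO siRNA 1 and 2 over all genes, on the principal component with 25.7% of the variance (52.7 against -40.1 and -22.7). The 10 hepatocyte markers summed to between 23412 and 33505 CPM in controls and between 16233 and 28323 CPM after FTO siRNA, and none of the 10 was called (1 at an unadjusted p under 0.05). Of 14 immune cell markers 7 could be tested and 5 rose, with summed levels of 51.7 to 102 CPM in controls and 79.2 to 112 CPM after FTO siRNA; MS4A1, FCGR3A and LST1 had no count in any control. Of 8 fibroblast markers 6 could be tested and 3 rose, with sums of 99.8 to 190 and 248 to 600 CPM, and DCN and THY1 had no count in any control. Squamous epithelial markers (2 of 4 tested, 1 rose) summed to 3.08 to 3.93 CPM in controls and 5.50 to 8.33 CPM after FTO siRNA. Of 4 endothelial markers 1 could be tested and none was called (1 at an unadjusted p under 0.05), with sums of 20.3 to 25.5 and 14.9 to 23.5 CPM, and VWF and KDR had no count in any control. The fibroblast and squamous sums separated the groups and the sums of the other lists overlapped. Gene by gene, 6 of the 7 tested immune markers had all 3 FTO siRNA libraries over all 3 controls, against 19.2% of all genes tested. Among them, mean CPM went from 0.04 to 1.17 for PTPRC, from 0.308 to 3.05 for CD3D and from 2.91 to 12.1 for CD74. The part of the marker genes in the results below was not tested.

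After FTO siRNA 6 of the 35 mitotic genes fell, none rose and 29 did not pass the threshold (adjusted p under 0.05). The 6 were the kinesins KIF14, KIF15, KIF11 and KIF20B, the proliferation marker MKI67 and the topoisomerase TOP2A. They make up 17.1% of the members, where 3.83% of the 15025 genes tested fell and 7.53% rose. The fold change was below 0 for 34 of 35 members, with a median of -0.53 on the log2 scale, and for 46.5% of all genes tested, with a median of 0.04. All 3 FTO siRNA libraries lay under all 3 controls for 25 of 35 members (71.4%), against 17.4% of all genes tested, and no member had all 3 above the controls, against 19.2%. At an unadjusted p under 0.05 there were 18 of the 35 members, and 4197 of all 15025 genes tested. The count of 6 rested on single libraries. It was 0 without control 1 or without control 2, 3 without control 3 and 19 without FTO siRNA 3. The share of all genes tested that fell moved too: 0.602% without control 1, 0.679% without control 2, 1.70% without control 3 and 14.1% without FTO siRNA 3. DESeq2 called 14 members lower and none higher, and it called more of all genes too (6.85% lower and 9.85% higher).

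**Figure D1:**
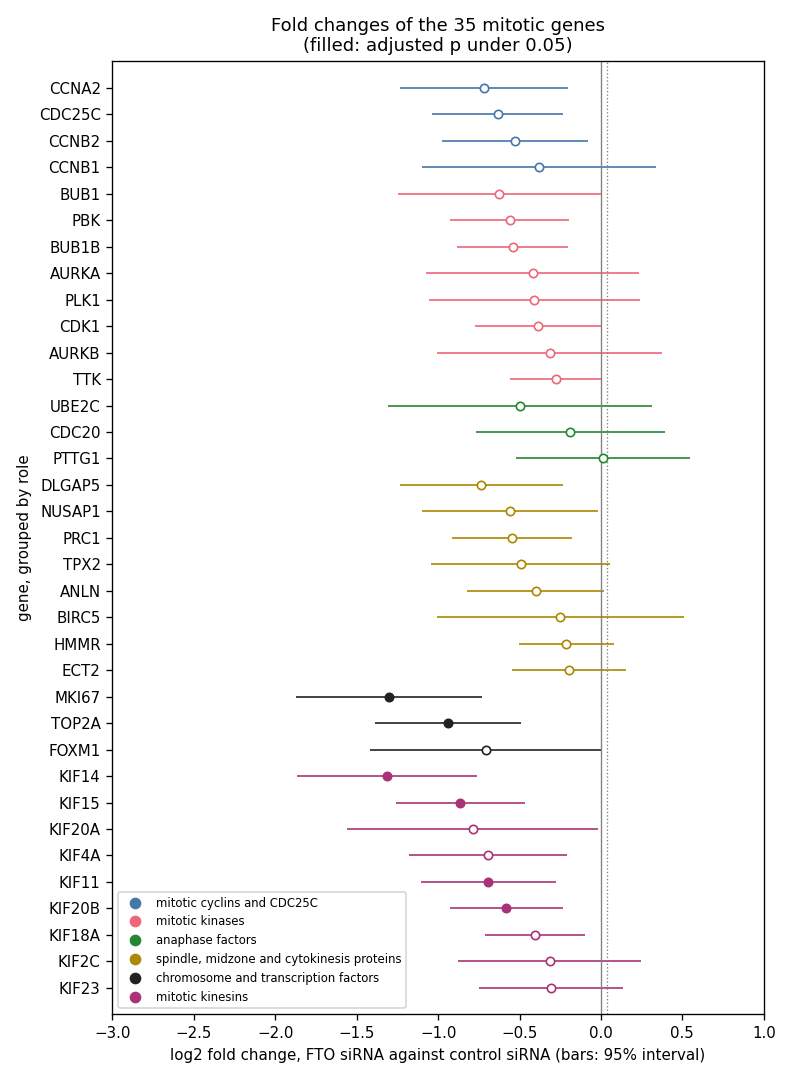
Log2 fold change of each of the 35 mitotic genes (x axis, FTO siRNA against control siRNA, n = 3 per group; y axis, genes grouped by role) with its 95% interval from edgeR; filled points passed the adjusted threshold of 0.05, and the dotted line is the median of all genes tested (0.04). The 6 filled points are MKI67, TOP2A and the kinesins KIF14, KIF15, KIF11 and KIF20B, and PTTG1 is the gene at 0.01.

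The libraries fell into a pattern that the group means hide. Relative to the mean of the 3 controls, the median member lay at -0.37 in FTO siRNA 1, at -0.31 in FTO siRNA 2 and at -1.12 in FTO siRNA 3 (log2 of CPM + 1), while the controls were at 0.01, -0.02 and 0.05. FTO siRNA 3 was the lowest of the 3 for 33 of 35 members (94.3%) and for 40.8% of all genes tested. Summed over the 35 genes, the level was 6896, 6661 and 7005 CPM in the controls and 5126, 5471 and 3208 CPM in FTO siRNA 1, 2 and 3. The typical spread was accordingly wider after FTO siRNA: the median coefficient of variation of a member was 5.13% among controls and 29.7% among FTO siRNA libraries, and it was the larger in the latter for 32 of 35 genes. FTO siRNA 1 alone was under every control for 29 members, FTO siRNA 2 for 28 and FTO siRNA 3 for 35. Of all genes tested the same held for 37.5%, 35.8% and 39.5%.

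**Figure D2:**
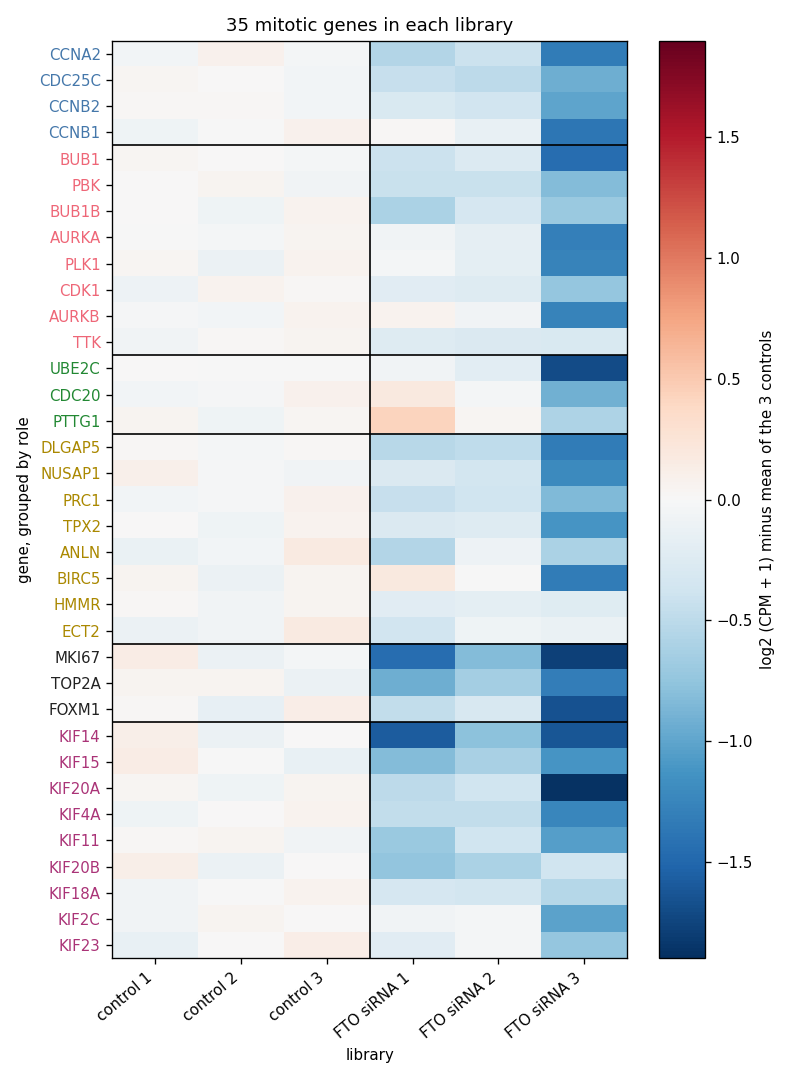
Level of each of the 35 genes (rows, grouped by role in the order cyclins and CDC25C, kinases, anaphase factors, spindle and cytokinesis proteins, chromosome and transcription factors, kinesins) in each of the 6 libraries (columns), as log2 of CPM + 1 minus the mean of the 3 controls. FTO siRNA 3 is the darkest column, at a median of -1.12, whereas FTO siRNA 1 and 2 are pale for CCNB1, AURKB, CDC20, PTTG1 and BIRC5.

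Among the mitotic cyclins and CDC25C none of 4 passed, with fold changes from -0.72 to -0.38 (median -0.58). CCNA2, cyclin A2, which drives S phase and entry into mitosis, was at 160.3, 175 and 162 CPM in controls 1, 2 and 3 and at 112, 124 and 65.6 CPM in FTO siRNA 1, 2 and 3. The groups did not overlap (-0.72 ± 0.23, adjusted p = 0.0768). CDC25C, the phosphatase that activates CDK1, was at 30.9, 30.2 and 28.8 CPM and then at 21.8, 21.0 and 15.3 CPM. Its groups did not overlap either, and it lay just outside the threshold (-0.63 ± 0.18, adjusted p = 0.0537). CCNB2, a B-type cyclin, had means of 83.6 ± 2.55 and 58.04 ± 14.6 CPM (-0.53 ± 0.20). CCNB1, the main B-type cyclin of mitotic entry, was at 205, 215 and 230.3 CPM in controls and at 220.1, 197 and 82.7 CPM after FTO siRNA. Its groups overlapped, because FTO siRNA 1 reached the control range and only FTO siRNA 3 was far below it. The difference of CCNB1 had a 95% interval from -1.10 to 0.34.

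None of the 8 mitotic kinases passed, and all 8 had fold changes below 0, from -0.62 to -0.28 (median -0.41). BUB1B (BUBR1), the checkpoint protein that inhibits CDC20, was at 157, 146 and 163 CPM in controls and at 102, 124 and 94.6 CPM after FTO siRNA, with no overlap (-0.54 ± 0.15, adjusted p = 0.0524). PBK, a mitotic serine/threonine kinase, was at 49.2, 50.996 and 46.9 CPM and then at 36.3, 36.3 and 27.2 CPM (-0.56 ± 0.16, adjusted p = 0.0577). These had the smallest p-values of the kinases. BUB1, which recruits checkpoint proteins to kinetochores, was at 179, 174 and 169 CPM and at 130.4, 145 and 63.4 CPM (-0.62 ± 0.27, adjusted p = 0.179). All 3 FTO siRNA libraries of BUB1 were under the controls, FTO siRNA 3 by the most, and without FTO siRNA 3 the difference was -0.36 and passed (adjusted p = 0.0319). TTK (MPS1), the kinase that starts checkpoint signalling, had the fold change nearest 0 of the kinases, at 74.8, 79.9 and 81.7 CPM in controls and at 66.3, 64.7 and 64.3 CPM after FTO siRNA. Its FTO siRNA libraries were nearly equal and lay under every control, with a difference of -0.28 ± 0.13 (adjusted p = 0.193).

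In the remaining kinases FTO siRNA 3 stood well under FTO siRNA 1 and 2. CDK1, the kinase that B-type cyclins activate, had 119.9, 135 and 131 CPM in controls and 110.3, 109 and 76.5 CPM after FTO siRNA (-0.39 ± 0.17). PLK1, which acts from centrosome maturation to cytokinesis, had 210.5, 191 and 216 CPM and then 200.3, 180.3 and 84.7 CPM (-0.41 ± 0.28). AURKA, the centrosomal Aurora kinase, had 247, 243 and 258 CPM and then 238, 221 and 101 CPM (-0.42 ± 0.29). Of these 3, the groups overlapped for PLK1, and 7.91% of the 50-base words of AURKA occur elsewhere, most often in transcripts of RAB3GAP2. AURKB, the kinase of the chromosomal passenger complex, had 124, 122 and 132 CPM in controls and 132, 120.4 and 51.7 CPM after FTO siRNA. FTO siRNA 1 and 2 of AURKB were close to the controls, and the mean of the 3 gave a difference of -0.31 ± 0.30 (adjusted p = 0.543).

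The anaphase factors showed the smallest differences: none of 3 passed, with fold changes from -0.50 to 0.01 (median -0.19). All 3 were among the 12 members with the shortest transcripts. With length and GC trends removed the differences were -0.71 for UBE2C, -0.47 for CDC20 and -0.20 for PTTG1. The median of the mitotic kinesins was then -0.54, in place of -0.69. CDC20, the activator of the APC/C, was at 209, 213 and 229 CPM in controls and at 246, 210.3 and 115 CPM after FTO siRNA (-0.19 ± 0.25, interval -0.77 to 0.39). PTTG1, the separase inhibitor securin, was at 178, 162 and 175 CPM and at 229, 176 and 114 CPM (0.01 ± 0.23, interval -0.52 to 0.55). For both genes FTO siRNA 1 was above every control and FTO siRNA 3 below every control. Without FTO siRNA 3 the differences were 0.05 for CDC20 and 0.21 for PTTG1. UBE2C, the E2 enzyme of the APC/C, was at 132, 130.8 and 131 CPM in controls and at 125, 114 and 39.9 CPM after FTO siRNA. Its controls were nearly equal, its groups did not overlap, and its difference of -0.50 ± 0.36 (adjusted p = 0.402) was -0.16 without FTO siRNA 3. Words shared with genes elsewhere leave the counts of CDC20 (9.03%, most often CDC20P1) and PTTG1 (3.82%, most often PTTG3P) less certain.

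**Figure D3:**
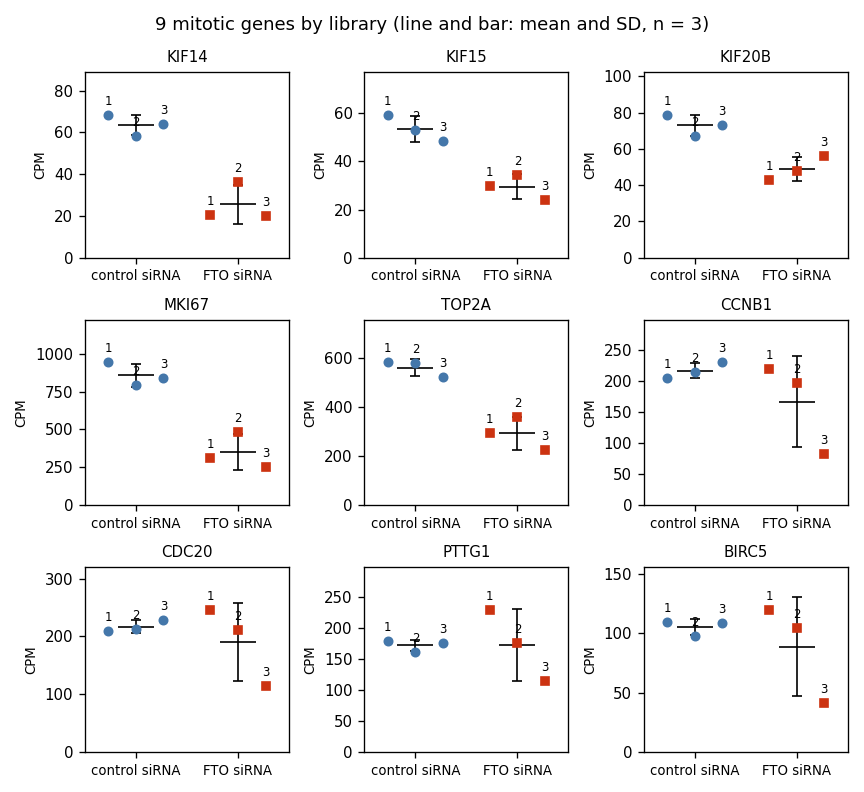
CPM of 9 mitotic genes in each library (y axis, linear from 0; x axis, the group; the digit beside a point is the replicate number; line and bar, mean and SD, n = 3). KIF14, KIF15, KIF20B, MKI67 and TOP2A are lower in all 3 FTO siRNA libraries, whereas CCNB1, CDC20, PTTG1 and BIRC5 have FTO siRNA 3 far below the other FTO siRNA libraries (82.7 CPM of CCNB1 against 220.1 and 197).

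None of the 8 spindle, midzone and cytokinesis proteins passed, with fold changes from -0.73 to -0.19 (median -0.45). PRC1, which bundles microtubules of the central spindle, was at 231, 236 and 253 CPM in controls and at 176, 184 and 133 CPM after FTO siRNA (-0.55 ± 0.16, adjusted p = 0.0638). DLGAP5 (HURP), which stabilises kinetochore fibres, was at 143, 138 and 143 CPM and at 98.1, 101 and 55.9 CPM (-0.73 ± 0.22, adjusted p = 0.0671). Neither pair of groups overlapped. TPX2, which activates Aurora A and seeds spindle microtubules, had 715, 675 and 745 CPM in controls and 588, 602 and 327 CPM after FTO siRNA, and NUSAP1, a microtubule bundler, had means of 218 ± 12.9 and 148 ± 47.5 CPM. BIRC5 (survivin), the passenger subunit that docks AURKB at centromeres, had 109, 97.6 and 109 CPM in controls and 119.8, 104 and 41.3 CPM after FTO siRNA. It therefore had the same form as AURKB and CDC20, and without FTO siRNA 3 its difference was 0.06 in place of -0.25.

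HMMR, ECT2 and ANLN departed from that form. HMMR, a spindle protein that binds hyaluronan, had 55.6, 51.8 and 56.4 CPM in controls and 46.98, 47.99 and 46.4 CPM after FTO siRNA, so that all 3 libraries were alike and under every control (-0.21 ± 0.13). ECT2, the exchange factor that activates RhoA at the division plane, had 222, 228 and 271 CPM and then 185, 227 and 218 CPM. It was the member with the highest FTO siRNA 3 value relative to controls (-0.13), and the interval of its difference ran from -0.54 to 0.16. ANLN (anillin), a scaffold of the contractile ring, had 376, 395 and 458 CPM in controls and 278, 383 and 269.7 CPM after FTO siRNA, with overlapping groups (-0.40 ± 0.18).

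Of the genes of chromosome structure and transcription 2 of 3 fell, and the median of -0.94 was the lowest of the role groups. MKI67 (ENSG00000148773.11, chromosome 10) encodes Ki-67, which coats mitotic chromosomes and is the usual histological marker of proliferation. It was at 943, 795 and 839 CPM in controls 1, 2 and 3 and at 312, 483 and 251 CPM in FTO siRNA 1, 2 and 3. The highest FTO siRNA library was well under the lowest control, and the mean went from 859 ± 76.05 to 349 ± 120.5 CPM (-1.30 ± 0.25, adjusted p = 0.0150). TOP2A (ENSG00000131747.13, chromosome 17), which untangles sister chromatids, was at 580.5, 579 and 519 CPM in controls and at 293, 358 and 224 CPM after FTO siRNA. TOP2A fell by 0.94 ± 0.20 in log2 units (adjusted p = 0.0202), to 52.2% of the control mean. FOXM1, the transcription factor of late cell cycle genes, was at 235, 206 and 253 CPM and at 167, 186 and 72.2 CPM. Its groups did not overlap, yet its FTO siRNA libraries were spread widely and it did not pass (-0.71 ± 0.31, adjusted p = 0.179). The call of TOP2A was lost without control 1, control 2 or control 3, that of MKI67 without control 1 or control 2, and both with length and GC trends removed (adjusted p = 0.0655 and 0.0569).

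The mitotic kinesins, motors that slide, cross-link or depolymerise microtubules, held the other 4 calls: 4 of 9 fell, 9 of 9 were below 0 and the median was -0.69. KIF14 (ENSG00000118193.10, chromosome 1), a cytokinesis motor that works with citron kinase and PRC1, was at 68.2, 58.4 and 63.9 CPM in controls and at 20.5, 36.4 and 19.9 CPM after FTO siRNA. The mean fell from 63.5 ± 4.92 to 25.6 ± 9.35 CPM, or to 40.3% of the control (-1.31 ± 0.24, adjusted p = 0.0128), the lowest fold of the 35 genes. KIF15 (ENSG00000163808.15, chromosome 3), which helps to keep the spindle bipolar, was at 59.2, 52.9 and 48.4 CPM and at 29.7, 34.5 and 24.1 CPM. It fell by 0.86 ± 0.17 (adjusted p = 0.0178), with a gap between the groups. KIF11 (Eg5; ENSG00000138160.5, chromosome 10), the motor that pushes spindle poles apart, was at 120.6, 123 and 113 CPM and at 72.3, 90.9 and 56.97 CPM. It fell by 0.69 ± 0.18 (adjusted p = 0.0436).

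KIF20B (ENSG00000138182.13, chromosome 10), a motor needed to complete cytokinesis, was at 78.6, 67.3 and 73.2 CPM in controls and at 42.8, 47.8 and 55.9 CPM after FTO siRNA. All FTO siRNA libraries were under the controls, and here FTO siRNA 3 was the highest of them and not the lowest. KIF20B fell by 0.58 ± 0.15 in log2 units (adjusted p = 0.0432). Calls were lost with 1 library left out: those of KIF14 and KIF15 without control 1 or control 2, and that of KIF11 also without control 3 or FTO siRNA 1. KIF20B lost its call without any 1 library other than FTO siRNA 3 (highest adjusted p 0.187). The fold change of KIF14 was -1.28 without control 1 and -1.37 without control 2. In these 2 fits 0.602% and 0.679% of all genes tested fell, against 3.83% with all libraries. With length and GC trends removed KIF14 and KIF15 were called, and KIF11 (adjusted p = 0.118) and KIF20B (0.110) were not. KIF15 overlaps TMEM42 on the same strand, which could share reads with it.

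Of the other 5 kinesins none passed. KIF4A, a chromokinesin that acts with PRC1 on the central spindle, was at 106, 112 and 117 CPM in controls and at 80.1, 80.1 and 46.6 CPM after FTO siRNA (-0.69 ± 0.21, adjusted p = 0.0711). Of its words 14.4% occur in genes elsewhere, most often in the near-identical gene KIF4B. KIF18A, which dampens chromosome movements at the spindle equator, was at 62.7, 65.4 and 69.0 CPM and at 52.3, 51.5 and 45.01 CPM (-0.41 ± 0.13, adjusted p = 0.0892). Both had groups that did not overlap. KIF20A (MKLP2), which carries the passenger complex to the midzone, was at 135, 123 and 136 CPM and at 92.3, 101 and 34.9 CPM. FTO siRNA 3 of KIF20A lay at -1.88 relative to controls, the lowest value of any member in any library, and the difference of -0.79 ± 0.34 had an adjusted p of 0.170. KIF23 (MKLP1), of the centralspindlin complex, was at 147, 164 and 178 CPM and at 139.6, 158 and 97.4 CPM, and KIF2C (MCAK), a microtubule depolymerase, at 113, 124 and 119 CPM and at 113, 115 and 57.9 CPM. The groups of KIF23 and KIF2C overlapped, with differences of -0.31 ± 0.19 and -0.31 ± 0.25.

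**Figure D4:**
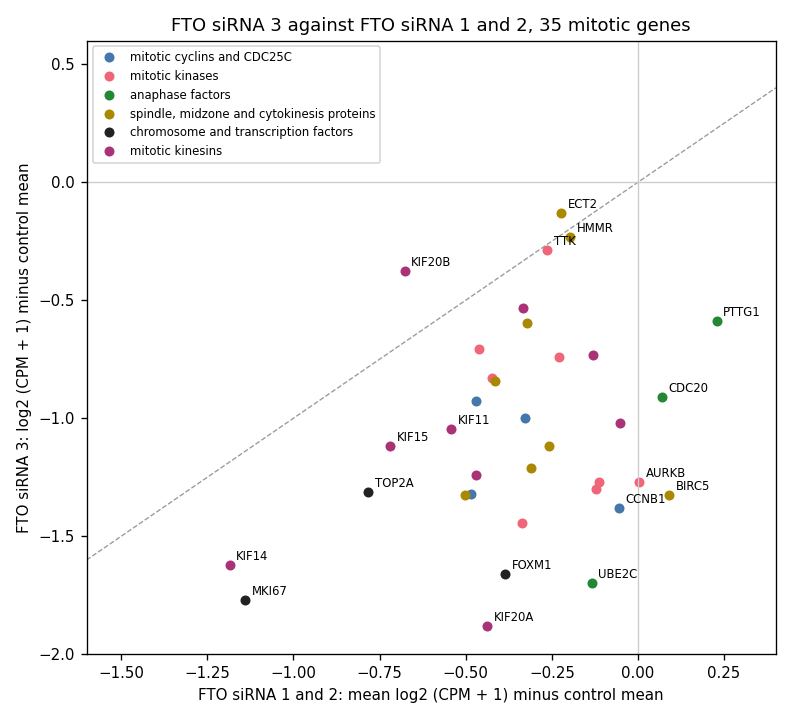
For each of the 35 genes, the mean of FTO siRNA 1 and 2 (x axis) against FTO siRNA 3 (y axis), both as log2 of CPM + 1 minus the control mean; the dashed line marks equality. All points but KIF20B and ECT2 lie below the line, and BIRC5, CDC20 and PTTG1 lie right of 0 on the x axis but at -1.32, -0.91 and -0.59 on the y axis.

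Set apart by library, the members ranged from genes low in all 3 FTO siRNA libraries to genes near the control mean in FTO siRNA 1 and 2 and low in FTO siRNA 3. MKI67 and KIF14 were at -1.14 and -1.19 in the mean of FTO siRNA 1 and 2 and at -1.77 and -1.62 in FTO siRNA 3. Taken singly, FTO siRNA 1 and 2 were at -1.45 and -0.83 for MKI67 and at -1.59 and -0.78 for KIF14. For KIF14, FTO siRNA 1 was thus close to FTO siRNA 3. UBE2C, KIF20A, BIRC5 and CCNB1 had the largest log2 gaps between FTO siRNA 3 and the mean of FTO siRNA 1 and 2. These gaps were -1.56, -1.44, -1.41 and -1.32. For TTK and HMMR the gaps were -0.03 and -0.03. By role, the mean of FTO siRNA 1 and 2 had a median of 0.07 for anaphase factors and -0.25 for kinases. The median was -0.28 for spindle and cytokinesis proteins, -0.40 for cyclins and CDC25C and -0.47 for kinesins. For chromosome and transcription factors it was -0.78. In FTO siRNA 3 the same medians were between -1.66 and -0.91. Refitted without FTO siRNA 3, 19 members passed, all lower: the 6 named above with CCNA2, CCNB2, CDC25C, PBK, BUB1, BUB1B, NUSAP1, DLGAP5, PRC1, FOXM1, KIF4A, KIF18A and KIF20A. In that fit 14.1% of all genes tested fell, and the members' median was -0.36. FTO siRNA 3 was also the library with the least FTO (5.21 CPM); whether these are linked was not tested.

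The genes that fell were also long. All 6 were among the 12 members with the longest transcripts (3725 to 12678 bases), where the median was -0.64, against -0.40 in the 12 shortest (914 to 2711 bases), where none fell. Over the 35 genes the log2 fold change and log2 length had a Pearson r of -0.62 and a Spearman rho of -0.45, and the genes share the same 6 libraries. Over all 14936 tested genes with a known length r was -0.12 and rho -0.21; genes in the length range of the 12 longest members fell in 5.29% of cases and those in the range of the 12 shortest in 1.86%. After trends on length and GC content were removed from each library, the members' r was -0.20, their median was -0.55, and 35 of 35 were below 0. The 12 shortest then had a median of -0.57 and the 12 longest of -0.54. The 5 members called in that fit were KIF14, KIF15, CDC25C, PBK and PRC1. Members with TTTGAA or TTCGAA in the promoter window had a median log2 fold change of -0.55 (6 of 21 fell). Those with neither had -0.38 (0 of 7), and they are not shown to lack a CHR of another form. Among the latter, CDC25C has 4 RefSeq entries and AURKB and PTTG1 have 2 each, of which only the first was searched. The shares of all tested genes with and without these letters that fell were not computed, so these counts have no background beside them.

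Levels among the members spanned a wide range in controls, from 8.73 CPM per kilobase of longest transcript for KIF14 to 197 CPM per kilobase for TPX2. PTTG1 (160.4), UBE2C (144), CDC20 (122) and AURKA (111) followed TPX2 on that scale of levels, and KIF15 (11.05) and KIF20B (11.4) were next above KIF14. KIF14, KIF15 and KIF20B were thus the least abundant members per length. KIF11, the other kinesin that fell, was at 24.4, above CDC25C, HMMR, KIF18A, TTK and PBK, which did not pass. The scale divides by length, and the genes that fell were long. Across the 35 genes the log2 fold change and the log2 control CPM had a Pearson r of -0.10.

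Other parts of the mitotic machinery were read from lists of genes that are not members. Of 8 condensin subunits, which compact chromosomes, 3 fell and none rose (median -0.68): NCAPD3 (149 to 89.9 CPM, adjusted p = 0.0340), SMC4 (302 to 185 CPM, 0.0329) and NCAPG2 (101 to 62.4 CPM, 0.0448). Of 16 genes of cohesin, separase and the shugoshins, which hold sisters together and release them, 6 fell and none rose (median -0.44), among them the separase ESPL1 (123 to 71.6 CPM, 0.0275), SMC1A (629 to 361 CPM, 0.0360) and the acetyltransferase ESCO2 (35.8 to 21.9 CPM, 0.0339). Spindle assembly and centrosome genes fell in 2 of 19 cases, with all 19 below 0: ASPM, a spindle pole protein, went from 251 ± 25.6 to 110.5 ± 19.9 CPM (adjusted p = 0.00649) and CEP192 from 109.6 to 58.4 CPM (0.0165). Of 6 further mitotic kinesins, CENPE alone passed (184 to 78.03 CPM, 0.00426), with all 6 below 0. KNTC1, of the complex that brings dynein to kinetochores, was the 1 of 10 further checkpoint genes that fell (100.01 to 56.9 CPM, 0.0144).

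Of 18 APC/C genes 2 fell, ANAPC1 (159 to 84.2 CPM, adjusted p = 0.0184) and CDC27 (127 to 85.9 CPM, 0.0385), and 10 of 18 were below 0 (median -0.02); 49.2% of the words of ANAPC1 occur in other genes. None of 19 tested genes that control CDK1 passed (4 at an unadjusted p under 0.05; median -0.15). Among 13 genes of the passenger complex and cytokinesis, none fell and AURKC rose at a very low level (0.494 to 1.43 CPM, 0.0346). Of 15 subunits of B-MYB, MuvB, DREAM and NF-Y only RBL2 (p130), a pocket protein of DREAM, passed, and it fell (31.7 to 17.05 CPM, 0.0163). Of 23 tested kinesins outside mitosis 1 fell and 2 rose (median 0.07), namely KIF12 (55.5 to 33.99 CPM, 0.0374), KIF3C (6.14 to 17.2 CPM, 0.00287) and the neuronal KIF5A (2.79 to 8.46 CPM, 0.0125). Of 37 genes of G1/S and DNA replication 5 fell and none rose (median -0.42), among them the DNA polymerase subunits POLA1 (76.7 to 47.1 CPM, 0.0250) and POLE (191 to 127 CPM, 0.0278); 35 of 37 were lowest in FTO siRNA 3, as were 33 of the 35 members. Whether the members differ from any of these lists was not tested.

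**Figure D5:**
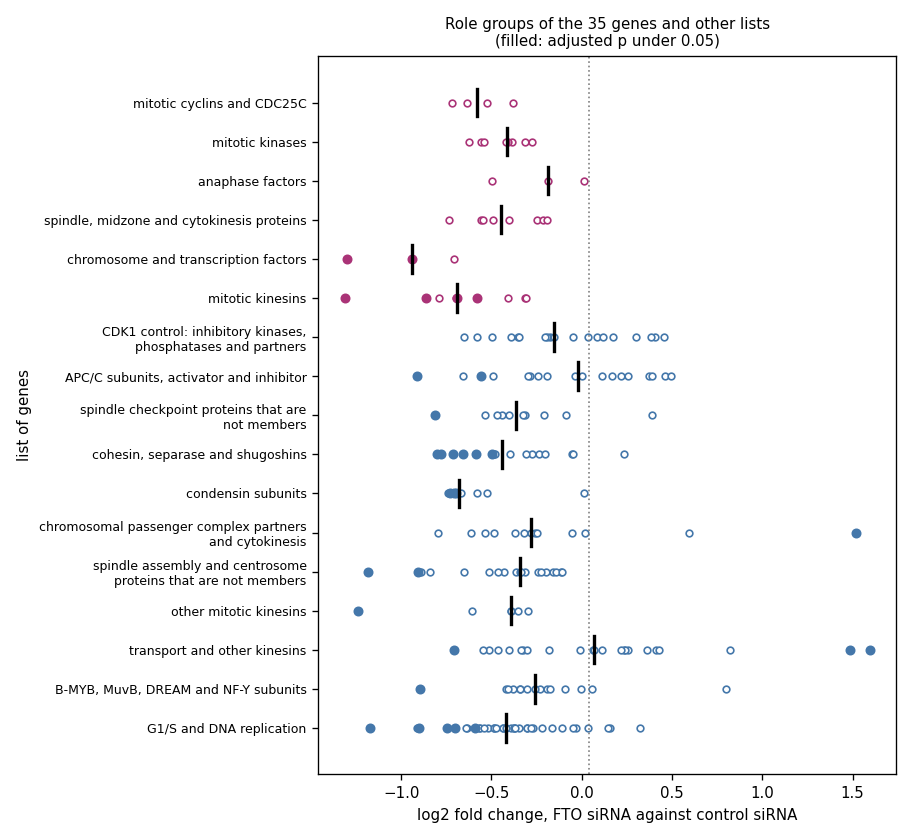
Log2 fold change (x axis, FTO siRNA against control siRNA) of every tested gene in the 6 role groups of the 35 members (purple) and in 11 other lists (blue); filled points passed the adjusted threshold of 0.05, black bars are list medians and the dotted line is the median of all genes tested (0.04). The medians of the condensin list (-0.68) and the mitotic kinesins (-0.69) lie farthest left after the chromosome and transcription factors (-0.94), and the kinesins outside mitosis lie at 0.07.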

How the data were processed

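Total RNA of HepG2 cells was sequenced in 3 libraries per group. The authors deposited raw counts per Ensembl gene, with no header. TopHat2 2.0.11, TopHat, HTSeq, hg19 and GRCh37 are named, without roles, per the submitters' processing notes; for counting settings and strand: not given in the sources used here. GENCODE 29 gave symbols (56753 of 60483 identifiers matched), transcript lengths and GC content. Its build differs from the one named, so no coordinates of the counted genes are printed. Promoters are from RefSeq (GRCh38.p14).

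The deposited counts were tested with edgeR 4.0.16 in R 4.3.3 (filterByExpr, TMM, glmQLFit and glmQLFTest with legacy=FALSE, group as the only term, two-sided). Benjamini-Hochberg adjustment ran over all tested genes, with a threshold of 0.05 and no fold minimum. CPM values are TMM-scaled. Log2 fold changes carry the standard error (their size over the square root of F) and, where given, a 95% interval. The steps were tested on simulated data with the same spread between libraries in both groups. The wider spread of the members after FTO siRNA was therefore not covered.

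The 35 members and all lists were chosen with earlier results of these data known. Values by library are given for FTO, called members, the 2 uncalled members with the smallest p and the most positive one of each role group, and some others chosen after their values were seen. Of the other lists, up to 3 called genes were named, and 1 gene that this takes in is not reported here. The promoter motifs were also chosen after the data were seen.

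Alternatives were other scalings (RLE, upper quartile, library size alone); no filter, or a minimum of 1 CPM in 3 libraries; DESeq2 1.42.0, limma-voom (limma 3.58.1) and edgeR's older method; a fold minimum of 1.2; the replicate number as a block; length and GC trends removed by lowess (span 0.3), alone and with the block; and each library left out. Reads shared between genes were gauged as the share of 50-base words of the longest transcript found in genes elsewhere. Protein sequences were not used here.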

Additional observations from a re-analysis of the deposited data

How the results depend on the processing

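The count of 6 members that fell was 10 without composition factors, 14 with DESeq2 and 2 with the replicate block together with the length and GC trends removed. It ran from 0 to 19 when 1 library was left out (0 without control 1 or control 2, 3 without control 3, 19 without FTO siRNA 3), and was between 4 and 8 under the other alternatives. No member was called higher under any of the 18 alternatives. Over all genes, where 575 fell, leaving out 1 library gave from 94 (without control 1) to 2152 (without FTO siRNA 3); the cause was not tested. FTO was called lower under each of the 18, at log2 fold changes from -2.29 to -1.59.

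Deviations of same-numbered libraries from their group means correlated at -0.138, -0.0643 and -0.248. For libraries with different numbers the correlations ran from -0.102 to 0.207. With 3 libraries per group these values constrain one another. They cannot tell whether libraries with the same replicate number shared a culture or batch. With the number as a block 4 members fell (KIF14, KIF15, MKI67 and TOP2A).

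The sign of PTTG1, 0.01 as reported, turned with RLE factors (-0.0146), DESeq2 (-0.0145), no filter (-0.0369), limma-voom (-0.0417), the replicate block (-0.0429), and trends removed (-0.20, and -0.23 with the block). With 1 library left out it ran from -0.258 (without FTO siRNA 1) to 0.212 (without FTO siRNA 3). CDC20 ran from -0.430 to 0.0456 and BIRC5 from -0.544 to 0.0642, both above 0 only without FTO siRNA 3. None of these passed. Over single members, 18 calls were lost and 14 gained with 1 library left out, and 16 lost and 21 gained under the other alternatives. Shared reads, the unknown strand setting for the 20 members that overlap another annotated gene, and 3 libraries per group limit these results.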
